A study of Rattus norvegicus with 15 samples.

Results

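The rat miRNAs rno-miR-23a-3p, rno-miR-23b-3p, rno-miR-24-3p, rno-miR-27a-3p and rno-miR-27b-3p (written without the prefix below) come from a pair of paralogous gene clusters, and their levels were followed in cystic rat kidney across 3 salt diets. These 5 members were chosen by name, for reports that aldosterone regulates them in the collecting duct. They are 5 of the 600 miRNA names in the deposited count table (445 rat names and 155 names of other species), and all 5 passed the filter on low counts that left 519 names to test. The libraries hold small RNA from the kidney cortex of PCK rats (strain label PCK/CrljCrlPkhd1pck/CRL), which carry a Pkhd1 mutation and develop kidney and liver cysts. The 3 diets contained 0.01% NaCl (salt-deficient), 0.4% NaCl (the middle diet, used as the comparator) and 4% NaCl (high salt), with 5 libraries each. The rats started the diets at 6 weeks of age and ate them for 8 weeks, and the kidneys were flushed before the cortex was frozen. Every rat carried the Pkhd1 mutation, so no library here comes from a kidney without it. The labels' protocol describes libraries made from pools of rats, with fewer pools per diet than the 5 libraries listed, and does not tie a library to a rat or pool. The p-values therefore measure the spread between these libraries, part of which may be technical.

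A miRNA guides Argonaute proteins to messenger RNAs, mainly through its seed (bases 2 to 8), and lowers their stability and translation. Each cluster is transcribed as 1 precursor that holds a miR-23, a miR-27 and a miR-24 hairpin, and from each hairpin the 3p arm is the usual guide strand while the 5p arm is mostly discarded. The family is known from blood vessels, muscle, fat and immune cells, and in the collecting duct it has been tied to aldosterone, the adrenal steroid that rises on a low-salt diet and increases sodium uptake through the epithelial sodium channel ENaC. In cultured mouse collecting duct cells miR-27 has been linked to intersectin 2, an endocytic adaptor protein. Aldosterone itself was not analysed here.

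The mature sequences show which of the 5 names can be told apart. They are given 5′ to 3′ from RefSeq (GRCr8 assembly), with the seed in capitals.
miR-23a-3p: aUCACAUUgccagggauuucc
miR-23b-3p: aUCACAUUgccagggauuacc
miR-27a-3p: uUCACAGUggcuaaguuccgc
miR-27b-3p: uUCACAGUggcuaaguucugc
miR-24-3p: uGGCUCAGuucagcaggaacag

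The members fall into 3 seed groups. miR-23a-3p and miR-23b-3p share a seed and differ at 1 of 21 bases, U19A counted from the 5′ end. miR-27a-3p and miR-27b-3p share a seed and differ at 1 of 21 bases, C19U. The miR-23 and miR-27 seeds match at 6 of their 7 positions. Among the 693 rat mature miRNAs in the RefSeq table, 2 carry the miR-23 seed, 2 the miR-27 seed and 1 the miR-24 seed. The rule the authors used for reads that match more than 1 name is not given in the sources used here. A read that ends before base 19 would match both paralogues, so the split of reads between miR-23a-3p and miR-23b-3p, and between miR-27a-3p and miR-27b-3p, is uncertain.

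miR-24-3p cannot be assigned to a cluster at all, because the Mir24-1 and Mir24-2 hairpins release the same 3p sequence. Only their 5p arms differ, at 5 of 22 bases from base 17 on. Both hairpins are shown 5′ to 3′ from RefSeq (GRCr8), with the 5p and then the 3p mature arm in capitals.
Mir24-1, chr17:1818669-1818736, minus strand: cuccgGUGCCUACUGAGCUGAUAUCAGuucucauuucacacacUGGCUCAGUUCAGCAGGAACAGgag
Mir24-2, chr19:40859455-40859562, minus strand: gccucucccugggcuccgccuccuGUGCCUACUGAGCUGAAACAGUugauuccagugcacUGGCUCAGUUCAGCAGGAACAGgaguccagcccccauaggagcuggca

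The miR-23a cluster (Mir23a, Mir27a and Mir24-2) spans 389 bases at chr19:40859455-40859843 on the minus strand of GRCr8. The gap is 79 bases between Mir23a and Mir27a and 40 bases between Mir27a and Mir24-2, and no other gene in the RefSeq annotation spans the cluster. The miR-23b cluster (Mir23b, Mir27b and Mir24-1) spans 814 bases at chr17:1818669-1819482, also on the minus strand. Its gaps are 142 bases between Mir23b and Mir27b and 410 bases between Mir27b and Mir24-1. The protein-coding gene Aopep, an aminopeptidase gene annotated at chr17:1817001-2133008, spans the second cluster, and Fancc overlaps its end. Whether these bases are exonic or intronic was not analysed here.

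Sequencing depth averaged 6546249 ± 768948 reads on 0.01% NaCl, 5782205 ± 1001142 on 0.4% NaCl and 4909866 ± 540497 on 4% NaCl (SD, n = 5 each), with a range of 4167498 to 7826411 reads over the 15 libraries. Levels below are scaled CPM, that is CPM after TMM scaling, which sets the libraries on a common scale from names that change little. All 5 kidney epithelium markers were in the table, with summed levels of 268592 to 653629 scaled CPM, and all 5 collecting duct and other epithelium markers, with 5335 to 7554. The 2 striated muscle names in the table summed to 35.3 to 56.4 scaled CPM. Library 5 of the 0.01% diet stood apart from the others of its diet, with the highest kidney epithelium sum of all 15 libraries (653629), the highest smooth muscle and fibroblast sum (73399) and the lowest share of reads under names of other species (8.05%, where the other 4 had 11.2% to 13.5%, the 0.4% libraries 11.1% to 15.8% and the 4% libraries 14.0% to 14.3%).

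Together the 5 members held 2.07 ± 0.136% of all reads on 0.01% NaCl, 2.04 ± 0.206% on 0.4% NaCl and 2.07 ± 0.139% on 4% NaCl (SD, n = 5 each), differences smaller than the SD within a diet. Most of these reads were miR-27b-3p, which took a median of 82.7% of the members' reads per library (76.3% to 84.8%). miR-27b-3p ranked 12th of the 600 names by mean reads. The other members ranked 63rd (miR-27a-3p), 68th (miR-23b-3p), 73rd (miR-24-3p) and 78th (miR-23a-3p). The mature members are 21 or 22 bases long, so their reads were compared without correction for length, although small RNA libraries capture different sequences with different efficiency.

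The order miR-27b-3p, miR-27a-3p, miR-23b-3p, miR-24-3p, miR-23a-3p was firm at its top and loose below. miR-27b-3p had 10.7 to 20.4 times the reads of miR-27a-3p, in all 15 libraries. miR-27a-3p exceeded miR-23b-3p in 12 of 15 libraries (0.663 to 1.52 times), miR-23b-3p exceeded miR-24-3p in 11 of 15 (0.801 to 1.97 times), and miR-24-3p exceeded miR-23a-3p in 13 of 15 (0.968 to 1.64 times). These last 3 neighbouring steps lay within the spread over libraries. The paralogues were unequal in the same direction everywhere, with miR-23b-3p at 1.16 to 2.13 times miR-23a-3p in all 15 libraries. Within the miR-23b cluster, miR-27b-3p had a median of 17.4 times the reads of miR-23b-3p, whereas within the miR-23a cluster miR-27a-3p had a median of 1.70 times the reads of miR-23a-3p.

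**Figure D1:**
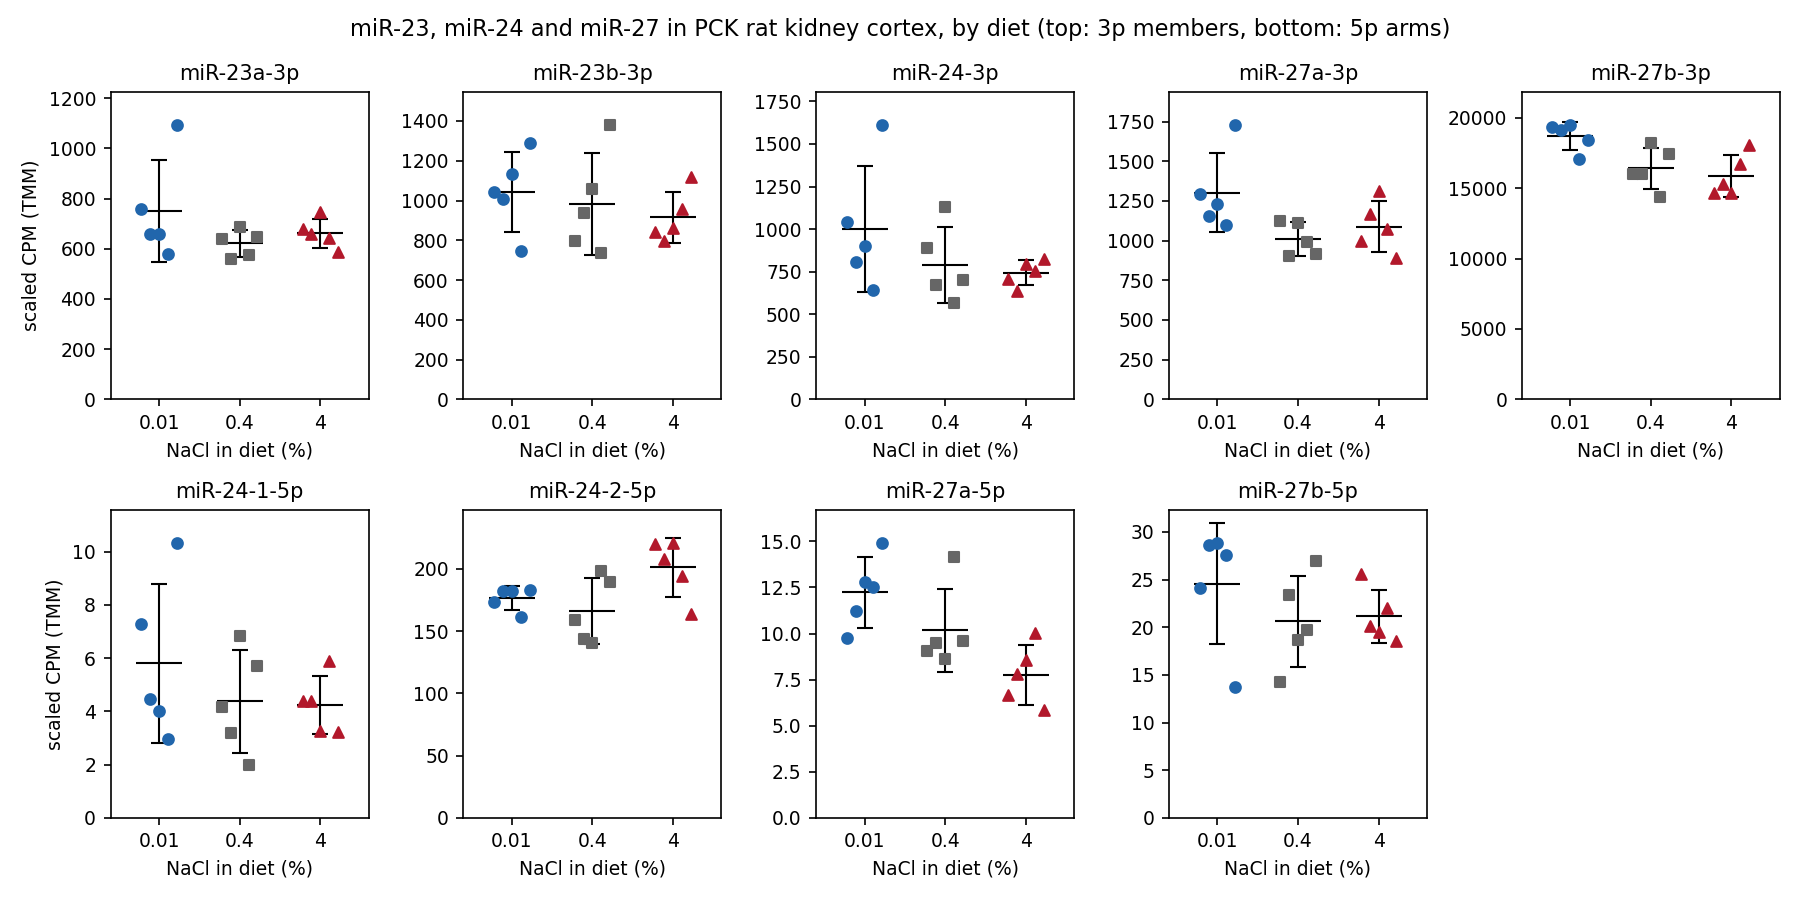
Scaled CPM (linear axis from 0, each panel with its own scale) of the 5 members (top row) and of 4 mature 5p arms of the same hairpins (bottom row), by NaCl in the diet; each point is 1 library, horizontal lines are means and bars are SD (n = 5 per diet). The rightmost 0.01% point, library 5, is the highest of all 15 for miR-23a-3p, miR-24-3p and miR-27a-3p (1094, 1612 and 1729 scaled CPM), and the diets overlap in every panel.

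On the salt-deficient diet all 5 members had higher means than on 0.4% NaCl, by 1.06 to 1.29 times, but none passed the test, and miR-23b-3p was lower when libraries were scaled by their totals alone (log2 fold change -0.11). The largest difference was that of miR-27a-3p, a miRNA studied for its control of lipid and fat cell genes. Library 5 of the 0.01% diet contributed much of the difference for miR-23a-3p, miR-24-3p and miR-27a-3p, and little of that for miR-27b-3p.

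miR-27a-3p had 1292, 1155, 1234, 1102 and 1729 scaled CPM in libraries 1 to 5 on 0.01% NaCl, against 1122, 900.9, 1114, 994.5 and 914.6 on 0.4% NaCl. Of the low-salt libraries, 4 of 5 lay above every 0.4% library, and the fourth fell among them. The means were 1303 ± 249 and 1009 ± 106 scaled CPM (SD, n = 5 each), and the log2 fold change was 0.37 ± 0.13 (SE), a fold of 1.29 with a 95% interval of 1.06 to 1.57 (edgeR quasi-likelihood test, unadjusted p = 0.0135, Benjamini-Hochberg adjusted p = 0.0667).

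miR-27b-3p, the abundant paralogue with the same seed, had 19343, 19116, 19492, 17091 and 18441 scaled CPM on 0.01% NaCl, against 15982, 16010.3, 18180, 14378 and 17458 on 0.4% NaCl. Again 4 of 5 low-salt libraries exceeded every 0.4% library, with library 4 below 2 of them. Means of 18696 ± 984 and 16402 ± 1475 scaled CPM (SD, n = 5 each) gave a log2 fold change of 0.19 ± 0.081 (edgeR, unadjusted p = 0.0331, adjusted p = 0.119), or 1.14 times (95% interval 1.01 to 1.28).

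miR-24-3p, which has been studied as a regulator of cell cycle genes, had 1043, 807.1, 900.6, 640.3 and 1612 scaled CPM on 0.01% NaCl, against 886.8, 668.7, 1131, 564.2 and 700.2 on 0.4% NaCl. Library 5 alone was above the 0.4% range, and the other 4 were mixed with it. The log2 fold change was 0.34 ± 0.22 (edgeR, adjusted p = 0.306).

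miR-23a-3p, studied for muscle growth and glutamine metabolism in other cells, had 759.7, 661.1, 660.4, 578.2 and 1094 scaled CPM on 0.01% NaCl, against 640.7, 558.9, 687.9, 577.2 and 647.2 on 0.4% NaCl. Only libraries 1 and 5 of the low-salt diet exceeded every 0.4% library. Its log2 fold change was 0.27 ± 0.14 (edgeR, adjusted p = 0.210).

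miR-23b-3p, the paralogue encoded beside miR-27b, had 1041, 1005, 1135, 745.7 and 1291 scaled CPM on 0.01% NaCl, against 798.3, 937.3, 1056, 736.1 and 1380.2 on 0.4% NaCl. The ranges coincided almost fully, and the single highest value was library 5 of the 0.4% diet. The log2 fold change was 0.09 ± 0.17 (edgeR, adjusted p = 0.745).

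The edgeR quasi-likelihood test called 0 of 5 members between 0.01% and 0.4% NaCl, where it called 16.8% of the 519 names. At an unadjusted p under 0.05 it gave 2 of 5 members, against 31.4% of all names. By DESeq2 the count was 1, miR-27a-3p (log2 fold change 0.38, adjusted p = 0.0449; adjusted p from 0.0449 to 0.293 over its alternatives), and by limma-voom 0. For no member were the diets free of overlap, as they were for 14.5% of all names. With TMM scaling all 5 log2 fold changes were positive, as were 49.3% of all names, with a median of 0.27 over the members and -0.0027 over all names. Without library 5 of the 0.01% diet the log2 fold changes were 0.084 for miR-23a-3p, -0.013 for miR-23b-3p, 0.090 for miR-24-3p, 0.23 for miR-27a-3p and 0.18 for miR-27b-3p. Markers of several cell types moved with the diet as well. Of the collecting duct and other epithelium markers 2 of 5 rose and none fell, miR-141-3p (1.04 ± 0.20, edgeR adjusted p = 0.00279) and miR-200c-3p (1.17 ± 0.24, adjusted p = 0.00303). Their summed level was 5947 to 7554 scaled CPM on 0.01% NaCl, against 5335 to 6124 on 0.4% NaCl. Of the smooth muscle and fibroblast markers 2 of 4 rose and none fell, miR-143-3p (0.83 ± 0.18, adjusted p = 0.00513) and miR-199a-5p (0.71 ± 0.23, adjusted p = 0.0405, or 0.0838 with library totals only). Their sum, of which miR-143-3p held 94.9% to 97.7% of the reads in each library, was 41045 to 73399 scaled CPM on 0.01% NaCl, against 19474 to 36547 on 0.4% NaCl. Of the kidney epithelium markers 1 of 5 fell, miR-194-5p, and none rose. Their sums were 354191 to 653629 scaled CPM on 0.01% NaCl, against 268592 to 461890 on 0.4% NaCl. miR-194-5p was a small part of these sums, with 1359 to 1949 and 2105 to 2851 scaled CPM, so the sums reflect other names. No marker of these 3 lists was at 0 in every library, and no endothelium, leukocyte, red blood cell or striated muscle marker passed the test. In whole cortex, more cells of a type and more RNA per cell cannot be told apart, and the part of these markers in the members' differences was not tested.

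Set against 4% NaCl, the salt-deficient diet again gave higher means for all 5 members, by 1.13 to 1.34 times, although with library totals alone miR-23a-3p (-0.085), miR-23b-3p (-0.061) and miR-27b-3p (-0.0028) had log2 fold changes below 0. miR-27b-3p came closest to the threshold and fell on either side of it depending on the method. This comparison uses the same 0.01% libraries as the one above, so the shared direction is not independent support.

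miR-27b-3p had 14665, 15305, 14676, 16735 and 18087 scaled CPM in the 4% libraries, all below 4 of the 5 values on 0.01% NaCl given above. The means were 18696 ± 984 scaled CPM on 0.01% NaCl and 15894 ± 1488 on 4% NaCl (SD, n = 5 each). The log2 fold change was 0.23 ± 0.081, or 1.18 times with a 95% interval of 1.04 to 1.33 (edgeR, unadjusted p = 0.0107, adjusted p = 0.0503). Among the 13 other ways of fitting all or most libraries it was called in 8, among them DESeq2 (0.26, adjusted p = 0.0172) and limma-voom (0.24, adjusted p = 0.0454). This count includes the fit with paralogues summed, where the row also holds the reads of miR-27a-3p. With library totals only the value was -0.0028 (adjusted p = 0.990, the other end of the range).

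miR-24-3p had the largest point difference, with 705.8, 639.3, 796.1, 755.9 and 824.2 scaled CPM in the 4% libraries. On 0.01% NaCl 3 of 5 libraries lay above that range, and the log2 fold change was 0.43 ± 0.22 (edgeR, adjusted p = 0.172). It was 0.17 without library 5 of the 0.01% diet.

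miR-27a-3p had 996.9, 1165, 1313, 1074 and 888.5 scaled CPM on 4% NaCl, and only library 5 of the 0.01% diet was above this range. Its log2 fold change was 0.26 ± 0.13 (edgeR, adjusted p = 0.169), and 0.12 without that library.

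miR-23a-3p had 677.5, 660.1, 746.9, 641.5 and 588.3 scaled CPM on 4% NaCl and a log2 fold change of 0.18 ± 0.14 (edgeR, adjusted p = 0.404), which was -0.017 without library 5 of the 0.01% diet. miR-23b-3p had 839.1, 795.9, 863.8, 959.3 and 1116 scaled CPM on 4% NaCl and a log2 fold change of 0.19 ± 0.17 (edgeR, adjusted p = 0.461). For both, the 0.01% libraries lay on both sides of the 4% range.

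Between 0.01% and 4% NaCl the edgeR quasi-likelihood test called 0 of 5 members, against 20.4% of all names, and 1 of 5 had an unadjusted p under 0.05, against 35.6% of all names. DESeq2 and limma-voom each called 1, miR-27b-3p. No member was free of overlap between the diets (14.6% of all names were), and with TMM scaling all 5 log2 fold changes were positive (49.5% of all names). Among the markers, 2 of 5 for collecting duct and other epithelium rose, again miR-141-3p (0.85 ± 0.20, edgeR adjusted p = 0.00988) and miR-200c-3p (1.06 ± 0.24, adjusted p = 0.00692), with sums of 5947 to 7554 scaled CPM on 0.01% NaCl, against 5342 to 6167 on 4% NaCl. Of the smooth muscle and fibroblast markers 1 of 4 rose, miR-143-3p (1.01 ± 0.18, adjusted p = 0.00281), with sums of 41045 to 73399 scaled CPM on 0.01% NaCl, against 23910 to 29764 on 4% NaCl. Of the kidney epithelium markers 2 of 5 rose with TMM scaling, miR-10a-5p (0.61, adjusted p = 0.0446, or 0.0965 with library totals only) and miR-30a-5p (0.37, adjusted p = 0.0348, or 0.277), and miR-194-5p fell. Their sums were 354191 to 653629 scaled CPM on 0.01% NaCl, against 316588 to 388354 on 4% NaCl. Of the leukocyte markers 1 of 5 fell, miR-150-5p (-1.11 ± 0.32, adjusted p = 0.0247), with sums of 2997 to 3350 scaled CPM on 0.01% NaCl, against 2346 to 5344 on 4% NaCl. The part of these markers in the members' values was not tested.

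On the high-salt diet the members stayed close to their 0.4% levels, with log2 fold changes from -0.10 to 0.11. The values were 0.09 ± 0.14 for miR-23a-3p, -0.10 ± 0.17 for miR-23b-3p, -0.09 ± 0.22 for miR-24-3p, 0.11 ± 0.13 for miR-27a-3p and -0.05 ± 0.081 for miR-27b-3p (SE). The libraries of the diets overlapped for every member, while they did not for 0.771% of all names, and with TMM scaling 2 of 5 values were positive, as were 45.1% of all names (with library totals only, miR-27b-3p was also positive, at 0.014). The edgeR quasi-likelihood test called 0 of 5 (adjusted p of at least 0.981), as it called 0% of all names, and DESeq2 and limma-voom called 0 of 5. No member had an unadjusted p under 0.05, against 5.2% of all names. The 95% intervals in fold units were 0.861 to 1.32 for miR-23a-3p, 0.724 to 1.20 for miR-23b-3p, 0.682 to 1.30 for miR-24-3p, 0.887 to 1.31 for miR-27a-3p and 0.860 to 1.09 for miR-27b-3p. The joint edgeR test of any difference among the 3 diets called 0 of 5 members, against 16.4% of all names. Its lowest adjusted p among them was 0.0890, for miR-27b-3p (unadjusted p = 0.0238), followed by 0.116 for miR-27a-3p (unadjusted p = 0.0354). DESeq2 called 1 of 5 in the joint test, miR-27b-3p (adjusted p = 0.0368), where it called 132 of the 519 names, and limma-voom called 0 of 5.

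**Figure D2:**
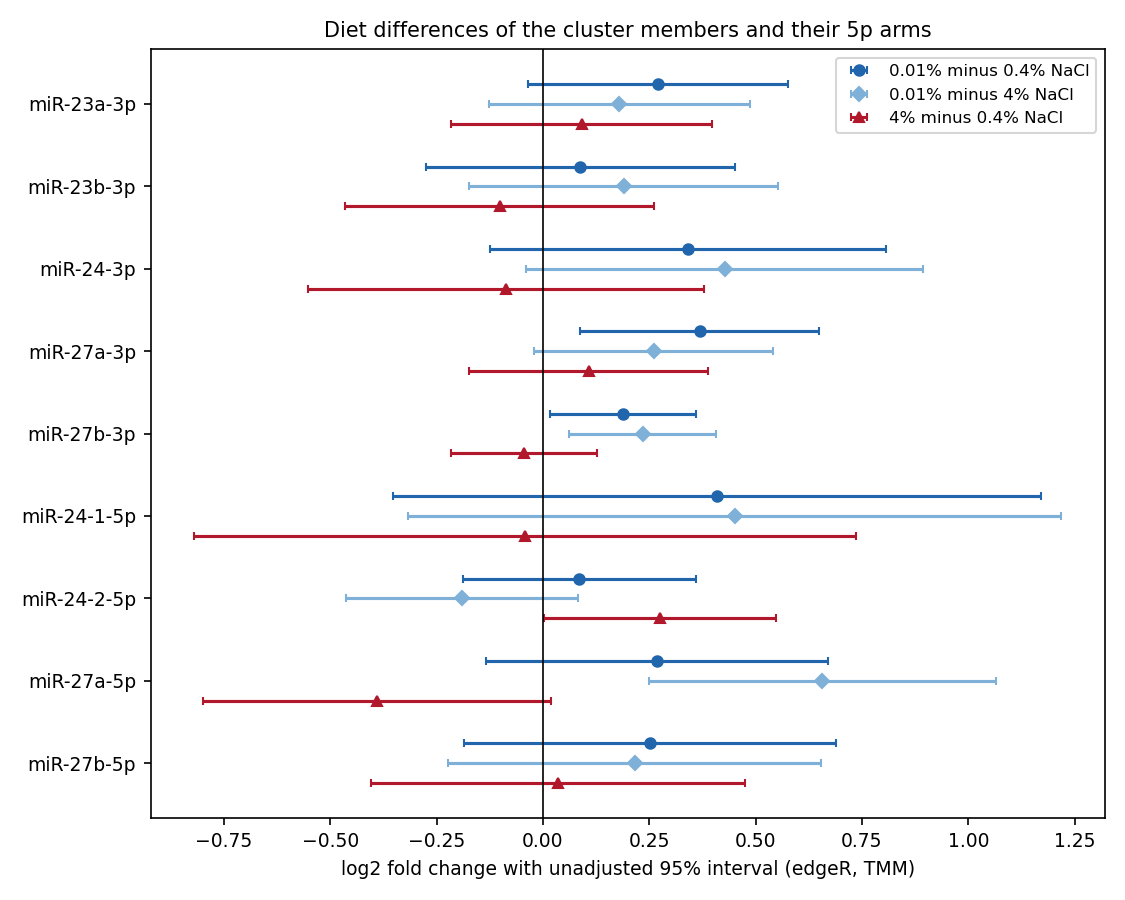
log2 fold change (edgeR with TMM scaling) of the 5 members and 4 of their 5p arms in each diet comparison; symbols are estimates and bars are unadjusted 95% intervals. For miR-27b-3p both comparisons of 0.01% NaCl have intervals above 0 (0.19 and 0.23), and miR-27a-5p in 0.01% minus 4% NaCl (0.66) is the single value that passed the adjusted threshold.

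The size of the members' differences depended on how the libraries were scaled. TMM factors ran from 0.781 to 1.01 in the 0.01% libraries, 0.922 to 1.15 in the 0.4% libraries and 1.03 to 1.11 in the 4% libraries, so they moved with the diet. When libraries were scaled by their totals alone, the median over all names moved to -0.19 between 0.01% and 0.4% NaCl and to -0.25 between 0.01% and 4% NaCl, against -0.0027 and -0.0099 with TMM. The members shifted along with it: miR-27a-3p was then 0.18 and miR-27b-3p 0.012 between 0.01% and 0.4% NaCl. A change of scaling shifts all names by nearly the same amount, so measured from the median of all names the members' values must hardly depend on it. For miR-27a-3p they were 0.37 under TMM and under library totals between 0.01% and 0.4% NaCl, and for miR-27b-3p 0.24 under both between 0.01% and 4% NaCl. Over 4 scalings no member moved by more than 0.035 on that footing. This follows from subtracting the median and is no support for the members' differences from 0.

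**Figure D3:**
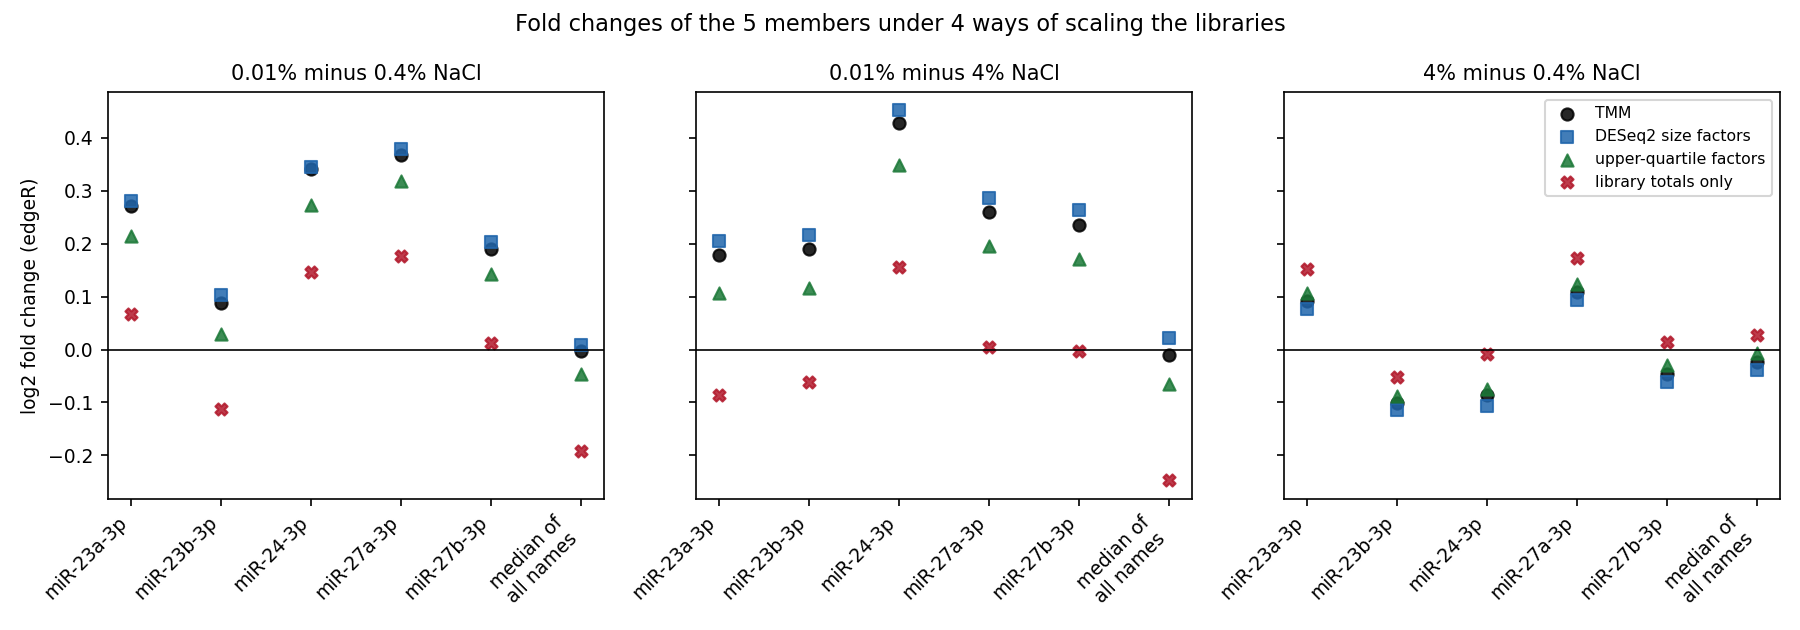
log2 fold changes (edgeR) of the 5 members and the median of all tested names in each diet comparison, with a symbol for each of 4 ways of scaling the libraries. With library totals only, the members and the median of all names shift down together in both comparisons of 0.01% NaCl, where the median is at -0.19 and -0.25.

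The mature 5p arms, which are the less used strands of the same hairpins, tell the clusters apart where miR-24-3p cannot. Of the 6 arms sought, 4 were in the table and all 4 were tested; miR-23a-5p and miR-23b-5p were not analysed here. Their sequences are given 5′ to 3′ from RefSeq (GRCr8) with the seed in capitals, since both miR-24 5p arms share a seed and both miR-27 5p arms differ in theirs.
miR-24-1-5p: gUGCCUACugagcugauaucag
miR-24-2-5p: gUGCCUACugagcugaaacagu
miR-27a-5p: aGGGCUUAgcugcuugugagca
miR-27b-5p: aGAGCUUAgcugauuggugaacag

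miR-24-2-5p, from the miR-23a cluster on chromosome 19, had 698 to 1259 reads per library, and miR-24-1-5p, from the miR-23b cluster on chromosome 17, had 11 to 63. The ratio of miR-24-2-5p to miR-24-1-5p was 17.8 to 99.5, with a median of 44.8, and was above 1 in all 15 libraries. The miR-27 pair did not share this order. miR-27b-3p exceeded miR-27a-3p in all 15 libraries, and miR-27b-5p exceeded miR-27a-5p in 14 of 15 (0.923 to 3.84 times, median 2.28), the exception being library 5 of the 0.01% diet with 84 and 91 reads. miR-27b-5p averaged 24.6 ± 6.33, 20.6 ± 4.81 and 21.1 ± 2.75 scaled CPM on 0.01%, 0.4% and 4% NaCl, and miR-27a-5p averaged 12.2 ± 1.92, 10.2 ± 2.24 and 7.77 ± 1.63 (SD, n = 5 each). RefSeq places another miRNA, rno-miR-3074, on the opposite strand over Mir24-1, and it had 4 to 20 reads per library. Whether the counting used strand is not given in the sources used here, so the few miR-24-1-5p reads are uncertain.

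miR-27a-5p was the only arm of these hairpins that passed the test in any diet comparison. It had 9.76, 11.2, 12.8, 12.5 and 14.9 scaled CPM on 0.01% NaCl (51 to 91 reads), against 6.65, 7.79, 8.56, 10.01 and 5.83 on 4% NaCl (27 to 47 reads). Of the 0.01% libraries 4 of 5 were above every 4% library, and library 1 was just below the highest of them. The log2 fold change was 0.66 ± 0.19, or 1.58 times with a 95% interval of 1.19 to 2.09 (edgeR quasi-likelihood test, adjusted p = 0.0247). In this comparison 1 of 4 arms was called higher, as were 7.32% of all names. The call was lost without library 3 (0.62, adjusted p = 0.0599) or library 5 (0.56, adjusted p = 0.0634) of the 0.01% diet and on leaving out library 1 of the 4% diet (0.58, adjusted p = 0.0641), while it held in the other 12 of 15 such refits. Over its 13 other alternatives the adjusted p ran from 0.00634 to 0.197, and with library totals only the value was 0.41 (adjusted p = 0.197).

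On 4% NaCl, miR-27a-5p was below every 0.4% library in 4 of 5 libraries, with 0.4% values of 9.05, 9.47, 8.63, 14.1 and 9.59 scaled CPM. The log2 fold change of 4% minus 0.4% NaCl was -0.39 ± 0.19 (edgeR, unadjusted p = 0.0607, adjusted p = 0.820). miR-24-2-5p had the opposite sign, with means of 201 ± 23.6 scaled CPM on 4% NaCl and 166 ± 26.6 on 0.4% NaCl (SD, n = 5 each) and a log2 fold change of 0.28 ± 0.13 (edgeR, unadjusted p = 0.0482, adjusted p = 0.820). Its 4% libraries exceeded every 0.4% library in 3 of 5. Between 0.01% and 0.4% NaCl the 4 arms had log2 fold changes from 0.09 to 0.41, and 0 of 4 passed the edgeR test or had an unadjusted p under 0.05, and DESeq2 and limma-voom called 0.

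Ratios of 2 names within a library do not depend on the scaling, and they ask whether the members of a cluster moved apart. Across 9 ratios and 3 diet pairs, an exact two-sided permutation test over the 252 splits of 10 libraries called 0 of 27 differences after Benjamini-Hochberg adjustment (lowest adjusted p = 0.321), and 3 of 27 had an unadjusted p under 0.05. The smallest p this design allows is 0.00794. A single difference at that p would not pass the adjustment over 27 differences, so several would have to reach it together. The absence of calls therefore does not show that the ratios were alike.

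Both paralogue ratios differed between diets by less than their spread. miR-23a-3p was 71.8 ± 10.3%, 66.1 ± 13.8% and 73.9 ± 14.0% of miR-23b-3p on 0.01%, 0.4% and 4% NaCl (SD, n = 5 each). miR-27a-3p was 6.98 ± 1.36%, 6.19 ± 0.782% and 6.94 ± 1.49% of miR-27b-3p. Between 0.01% and 0.4% NaCl the log2 ratios differed by 0.14 for the miR-23 pair (exact permutation p = 0.476, adjusted p = 0.973) and by 0.16 for the miR-27 pair (p = 0.310, adjusted p = 0.973). With the uncertain paralogues summed before the fit, miR-27a-3p plus miR-27b-3p had a log2 fold change of 0.25 ± 0.083 between 0.01% and 4% NaCl (edgeR, adjusted p = 0.0434) and 0.19 ± 0.083 between 0.01% and 0.4% NaCl (adjusted p = 0.128). miR-23a-3p plus miR-23b-3p had 0.20 ± 0.14 (adjusted p = 0.339) and 0.15 ± 0.14 (adjusted p = 0.498) in the same comparisons.

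The lowest p-values among the ratios were those of the arms of Mir27a. miR-27a-5p made up 0.952 ± 0.150%, 1.02 ± 0.259% and 0.715 ± 0.121% of miR-27a-3p on 0.01%, 0.4% and 4% NaCl (SD, n = 5 each). In the 4% diet 4 libraries lay between 0.652% and the 0.4% minimum of 0.775%, and library 4 stood apart at 0.932%. The log2 ratio differed by -0.49 between 4% and 0.4% NaCl and by 0.41 between 0.01% and 4% NaCl (exact permutation p = 0.0238 and adjusted p = 0.321 for each). miR-24-2-5p was 19.2 ± 5.38%, 22.8 ± 8.73% and 27.4 ± 5.0% of miR-24-3p on the 3 diets in the same order, and the log2 ratio differed by -0.54 between 0.01% and 4% NaCl (exact permutation p = 0.0476, adjusted p = 0.429).

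**Figure D4:**
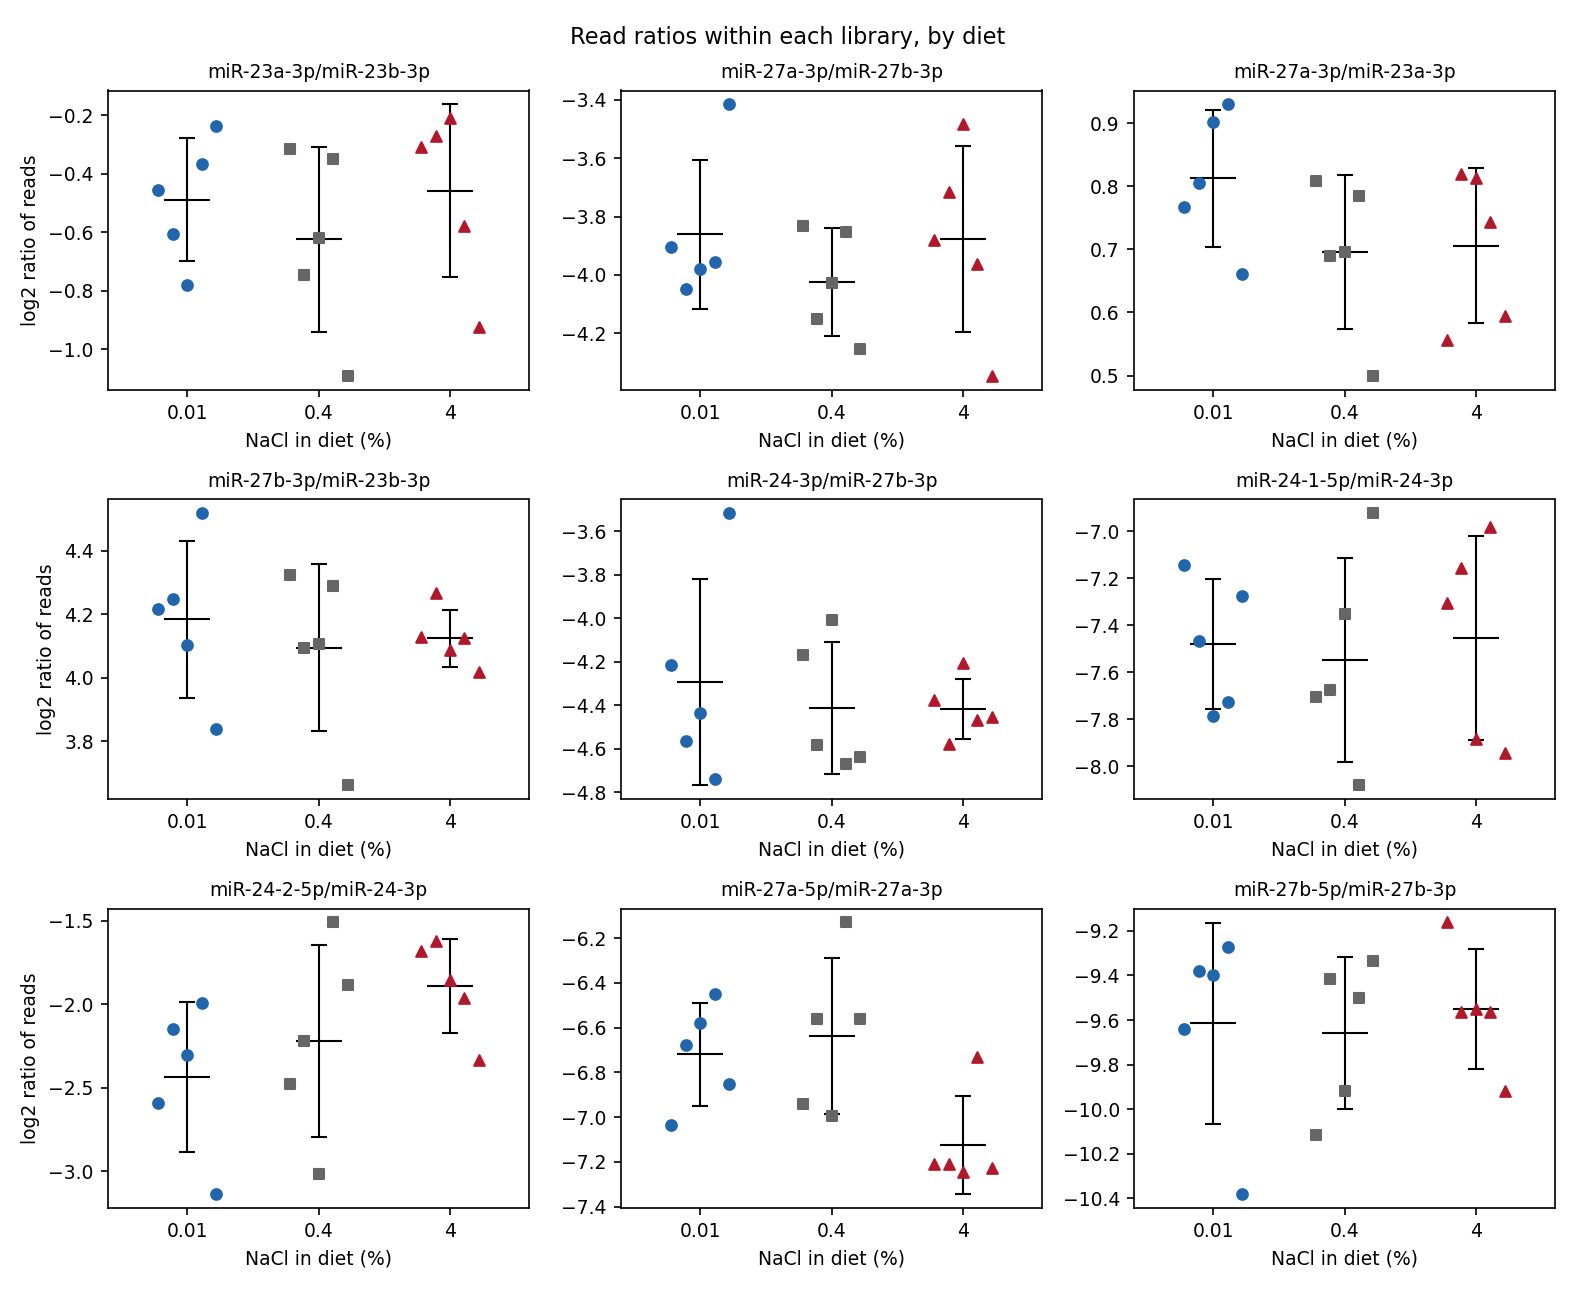
log2 ratio of reads of 2 names within each library, by NaCl in the diet, for 9 ratios of the clusters; each point is 1 library, horizontal lines are means and bars are SD (n = 5 per diet), and the vertical axes differ and do not start at 0. Library 5 of the 0.01% diet is the highest point for miR-27a-3p/miR-27b-3p (-3.41), and 4 of 5 libraries of the 4% diet lie below the 0.4% points for miR-27a-5p/miR-27a-3p.

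Across all 15 libraries the members of the miR-23a cluster kept the steadiest ratio, as a description with no test: the SD of the log2 ratio of miR-23a-3p to miR-27a-3p was 0.122. It was 0.203 for miR-23b-3p to miR-27b-3p. Between clusters it was 0.240 for miR-23a-3p to miR-27b-3p and 0.252 for miR-27a-3p to miR-27b-3p. It was 0.269 for miR-23a-3p to miR-23b-3p and 0.340 for miR-23b-3p to miR-27a-3p. The pairs within a cluster thus had smaller SDs than the pairs between clusters. For the miR-23b cluster this was not particular to its members, because names outside the family reached 0.193 with miR-23b-3p and 0.105 with miR-27b-3p. For miR-23a-3p and miR-27a-3p the lowest SDs with such names were 0.136 and 0.133. With miR-24-3p, which both clusters encode, the SDs were 0.230 for miR-23a-3p, 0.267 for miR-27a-3p, 0.311 for miR-23b-3p and 0.316 for miR-27b-3p. The levels themselves varied by an SD of 0.152 on the log2 scale for miR-27b-3p, 0.234 for miR-23a-3p, 0.249 for miR-27a-3p, 0.278 for miR-23b-3p and 0.384 for miR-24-3p, against a median of 0.363 over all tested names.

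Among the 229 names compared, each with a mean of at least 200 reads and outside the family, the steadiest ratio to miR-27b-3p over the 15 libraries was that of let-7b-3p (SD 0.105), followed by miR-200a-3p (0.111) and miR-151-3p (0.137). For miR-27a-3p they were miR-152-3p (0.133), miR-93-5p (0.144) and miR-106b-5p (0.146), and for miR-23a-3p miR-106b-5p (0.136), miR-100-5p (0.141) and miR-191a-5p (0.153). For miR-23b-3p they were let-7a-1-3p (0.193), miR-99a-5p (0.200) and let-7b-3p (0.205). For miR-24-3p they were the names cin-miR-3575-5p (0.130) and hsa-miR-148a-5p (0.138) and rat miR-10b-5p (0.171). The median SD over all names compared was 0.318 for miR-27b-3p and 0.476 for miR-24-3p. No name had an SD under 0.05, the level taken to point to shared reads.

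Some names of a list drawn up around aldosterone and ENaC passed the test in the comparisons of 0.01% NaCl, in both directions. This list of 12 names was chosen with earlier results of these data known and is no independent evidence. Of its names 8 were in the table and tested. Not every name has its own tie to aldosterone or ENaC: miR-9a-5p was listed because the study names it, and miR-194-5p because it is made with miR-192. Between 0.01% and 0.4% NaCl 2 rose, 2 fell and 4 did not pass, with a median log2 fold change of 0.38 against -0.0027 over all names. The edgeR test called 7.71% of all names higher and 9.06% lower there. miR-9a-5p, best known from the nervous system, rose (1.25 ± 0.27, adjusted p = 0.00513), as did mmu-miR-1983, a name reported to fall with aldosterone in mouse collecting duct cells (1.39 ± 0.33, adjusted p = 0.00731). miR-335, which lies within the Mest gene and was listed for the same report of a fall with aldosterone, fell (-1.38 ± 0.26, adjusted p = 0.00245). Its table name gives no arm. miR-194-5p, made with miR-192 in kidney epithelium, fell as well (-0.60 ± 0.14, adjusted p = 0.00653).

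Between 0.01% and 4% NaCl 1 name of that list rose, miR-9a-5p (1.24, edgeR adjusted p = 0.00692), and 2 fell, miR-335 (-0.99, adjusted p = 0.0143) and miR-194-5p (-0.50, adjusted p = 0.0201, or 0.0667 once library 5 of the 4% diet is left out). In the same comparison 7.32% of all names were called higher and 13.1% lower. Between 4% and 0.4% NaCl the edgeR test called 0 of 8, none had an unadjusted p under 0.05, and neither DESeq2 nor limma-voom called any name. Whether the members and this list differ in response was not tested.

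In the authors' deposited tables the ratio is written as the second diet over the first, so their signs are turned here to match. For miR-27b-3p between 0.01% and 4% NaCl the authors' deposited DESeq2 table gave 0.26 with an adjusted p of 0.0109, and the authors' deposited edgeR table gave 0.24 with an adjusted p of 0.0670. For miR-27a-5p in that comparison the authors' deposited tables gave 0.62 (DESeq2, adjusted p = 0.00711) and 0.66 (edgeR, adjusted p = 0.0324). For miR-27a-3p between 0.01% and 0.4% NaCl the authors' deposited tables gave 0.35 (DESeq2, adjusted p = 0.0740) and 0.39 (edgeR, adjusted p = 0.0687). The call on miR-27b-3p thus split between the tools in the authors' tables too.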

How the data were processed

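Small RNA libraries were made with a TruSeq kit and sequenced on a HiSeq machine, per the labels' protocols. Cutadapt, Bowtie and DESeq are listed in the submitters' processing notes. Their versions, the annotation and the rule for multiply matching reads were not given in the sources used. The authors deposited raw read counts per mature miRNA name, and result tables of 3 diet comparisons (log2 fold change, p-value and adjusted p-value), per the file headers. A further 90 columns of counts per library in those comparison tables were not used. Each library's diet came from the labels.

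Counts were scaled by TMM, filtered with filterByExpr and fitted with edgeR 4.0.16 (R 4.3.3) as 1 model of 3 diet means over 15 libraries, by the robust quasi-likelihood test with Benjamini-Hochberg adjustment over 519 names and a threshold of 0.05. The procedure was tested on simulated data for 0.01% minus 0.4% NaCl. It called 34.8% of names given an absolute log2 fold change of 0.5, and 0.962% of names given none. A difference as small as those of the members would thus often not be called. DESeq2 1.42.0, limma-voom (limma 3.58.1), other scalings and filters, paralogues summed, and fits without libraries were alternatives. Read ratios took a pseudocount of 0.5 read. Libraries of 1 diet differed beyond sampling noise (chi-square per degree of freedom of at least 31.0 over 30 pairs), so none was treated as a copy of another. This cannot tell separate rats from repeat libraries of 1 pool, because preparing a library also adds noise beyond the sampling of reads. All 15 libraries were fitted as separate samples. Counts of 11 to 63 reads limit miR-24-1-5p.

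The members and lists were chosen with earlier results of these data known. The genes named are the 5 members, the arms of their hairpins in the table, the names of the aldosterone and ENaC list that were called in a comparison, and the 3 names with the steadiest read ratio to each member. Cell type markers that passed the test were named after their values were seen.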

Additional observations from a re-analysis of the deposited data

Results flagged for a closer look

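Within each diet, the highest and lowest of the 5 libraries were compared with the rest for 54 sets of values (27 levels and 27 ratios), and a library stood apart by Dixon's criterion (0.71 for 5 samples) in 3, where chance alone marks about 5% of sets. miR-27a-5p in library 4 of the 0.4% diet was at 14.1 scaled CPM. The log2 ratio of miR-27a-3p to miR-27b-3p in library 5 of the 0.01% diet was -3.41. The log2 ratio of miR-27a-5p to miR-27a-3p in library 4 of the 4% diet was -6.73.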

How the results depend on the processing

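No paired analysis was run, because each library belongs to 1 diet and the labels link no library to one of another diet. The labels give no replicate numbers. Libraries 1 to 5 of each diet are numbered here in the order listed. The number of members called between 0.01% and 4% NaCl was 0 with TMM and edgeR, and 1 (miR-27b-3p) with DESeq2 size factors, with no filter, with names under 10 CPM on average removed, with DESeq2, with limma-voom, with the 5 most abundant names left out and with robust estimation off. It was 2 with paralogues summed, where both names stand for 1 row, and 0 to 1 without single libraries. Between 0.01% and 0.4% NaCl it was 1 (miR-27a-3p) with DESeq2 or with the 5 most abundant names left out, and for any diet difference 1 with DESeq2. The other alternatives gave 0, as did all of them between 4% and 0.4% NaCl and for the 27 ratios. For the ratios this says little, because a single difference could not pass the adjustment.

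With library totals only, the sign changed for miR-23b-3p (-0.11) and miR-24-2-5p (-0.11) between 0.01% and 0.4% NaCl. It changed for miR-23a-3p (-0.085), miR-23b-3p (-0.061), miR-27b-3p (-0.0028) and miR-27b-5p (-0.0026) between 0.01% and 4% NaCl, and for miR-27b-3p (0.014) and miR-24-1-5p (0.037) between 4% and 0.4% NaCl. In that last comparison the sign also changed for miR-24-1-5p with limma-voom (0.055). With the paralogues summed it changed for the rows of miR-23a-3p (-0.047) and miR-27a-3p (-0.059). Without the 3 libraries richest in names of other species it changed for miR-23b-3p (0.10) and miR-24-1-5p (0.062), as did the miR-23a-3p to miR-23b-3p ratio between 0.01% and 0.4% NaCl (-0.012). Of all 27 ratio differences, 17 changed sign in at least 1 of 18 refits. The causes were not tested, except that library totals shift all names.

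Without single libraries the log2 fold change ran from -0.023 to 0.22 for miR-23b-3p between 0.01% and 0.4% NaCl, and from -0.017 to 0.26 for miR-23a-3p between 0.01% and 4% NaCl. Between 4% and 0.4% NaCl it ran from -0.21 to 0.063 for miR-23b-3p, from -0.18 to 0.072 for miR-24-3p, from -0.21 to 0.15 for miR-24-1-5p and from -0.060 to 0.16 for miR-27b-5p. All names called between 0.01% and 0.4% NaCl numbered 55 with that 10 CPM minimum, against 87, and those called for any diet difference 132 with DESeq2, against 85. The miR-27a-5p call between 0.01% and 4% NaCl was also lost without the 3 libraries richest in names of other species (0.63, adjusted p = 0.0710).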
